A study of Mus musculus with 12 samples.

Results

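The integrated stress response genes described here are 10 liver transcripts: the transcription factors Atf4, Atf3 and Ddit3 (the gene of CHOP), the amino acid enzymes Asns, Psat1 and Phgdh, the regulators Trib3, Chac1 and Sesn2, and the hormone gene Fgf21. They were chosen by symbol, among probe sets annotated to exactly 1 gene, with the probe set of the highest mean over the arrays where a gene had several. All 10 were found, each with exactly 1 probe set, among 22180 genes in all. Livers of male mice on a C57BL/6 background were profiled on 12 arrays of the Affymetrix Mouse Gene 2.0 ST type, whose values are log2 intensities here. The mice were 8 to 10 weeks old at the start. They were either null for Ppard (Pparβ/δ-/-), which encodes the nuclear receptor PPARβ/δ, or wild type. They took a liquid control diet for 1 week and then either a liquid diet with 4% (v/v) ethanol or the control diet for 16 weeks. The 4 groups were null mice on ethanol, wild-type mice on ethanol, null mice on control diet and wild-type mice on control diet, with 3 arrays each. The study fed 10 mice per group, but the labels do not say that each array is a separate mouse, so p-values reflect only how far these samples vary. The labels name no promoter or cell type that restricts the null allele.

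When amino acids run short, when unfolded protein builds up in the endoplasmic reticulum or when mitochondria are stressed, kinases phosphorylate the initiation factor eIF2α, which slows translation of most messages and raises translation of Atf4. ATF4 protein binds C/EBP-ATF response elements and induces genes of amino acid synthesis and transport together with Atf3, Ddit3, Trib3, Chac1 and Sesn2. In liver, Fgf21 is induced both by ATF4 and by the fasting receptor PPARα, and the hormone acts on adipose tissue and brain through FGF receptors with the co-receptor β-klotho.

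In null livers Fgf21 was 2.22-fold and Asns 1.92-fold higher than in wild-type livers, averaged over the diets, and Ddit3 was 1.29-fold lower. Atf4 itself, Atf3, Phgdh, Trib3, Chac1 and Sesn2 did not pass the test for genotype. Thus 3 of the 9 members tested were called, 2 higher and 1 lower, where 7% of all 14031 genes tested were called (3.01% higher and 3.98% lower). Members and the gene lists below were chosen with earlier results of these data known. Their counts beside the share of all genes are therefore descriptions and not tests. For ethanol 0 of the 9 passed an adjusted p under 0.05, in either genotype or averaged over the genotypes. Psat1 was too dim to be tested. The comparisons share arrays (the averages use all 12), so they are not independent of each other.

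The arrays were alike in level, with median log2 intensities between 5.55 and 5.62 and correlations between arrays of 0.974 to 0.993. Wild-type control replicate 2 had a large weight in the ethanol comparison: without it, ethanol changed 810 genes in wild-type livers, against 13 with all arrays. Where leaving it out gave a member a call, the value without it is given too. Ppard, the targeted gene, lay between 7.69 and 8.06 on the null arrays and between 7.64 and 8.01 on the wild-type arrays, a log2 difference of 0.08 ± 0.08 (SE). Its probe set therefore checks no label, and the position of its probes within the gene was not used here. Of the hepatocyte markers 0 of 8 were called for genotype, with summed intensities of 81501 to 90331 over the 12 arrays.

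Fgf21 encodes the hormone FGF21, which the liver secretes in fasting and under stress. Its log2 intensities were 9.0, 8.46 and 8.12 in null ethanol livers, against 7.02, 7.79 and 7.38 in wild-type ethanol livers. On control diet they were 8.19, 8.88 and 9.10 in null livers, against 7.42, 7.43 and 7.81 in wild-type livers. All 6 null arrays (8.12 to 9.10) lay above all 6 wild-type arrays (7.02 to 7.81), a separation that 1.47% of all tested genes showed in this direction. Averaged over the diets, Fgf21 was higher by 1.15 ± 0.19 on the log2 scale (SE; 95% confidence interval 0.75 to 1.55), with a limma adjusted p of 0.00251. The difference was 1.13 ± 0.26 on ethanol (2.19-fold, limma adjusted p = 0.0485) and 1.17 ± 0.26 on control diet (2.26-fold, limma adjusted p = 0.0243). With 1 array left out, the control-diet call held in 9 of 12 fits and was lost without wild-type control replicate 1 or null control replicate 2 or 3 (1.11, 1.09 and 0.99). The ethanol-diet call held in 3 of 12 fits, those without null control replicate 1 or 3 or null ethanol replicate 3, and the differences over the 12 ran between 0.89 and 1.33. The averaged call held in all 12 fits (1.03 to 1.29).

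Ethanol did not shift Fgf21 beyond its error. The difference of ethanol from control diet was -0.20 ± 0.26 in null livers and -0.15 ± 0.26 in wild-type livers (SE; limma adjusted p = 0.774 and 0.83). The genotype difference on ethanol less that on control diet was -0.04 ± 0.37, with an interval of -0.84 to 0.76, so the ethanol and control-diet differences could not be told apart.

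Asns encodes asparagine synthetase, which makes asparagine from aspartate and glutamine. Its log2 intensities were 7.89, 8.67 and 8.12 in null ethanol livers, against 6.55, 7.40 and 7.60 in wild-type ethanol livers. On control diet they were 7.75, 8.06 and 7.74 in null livers, against 6.97, 7.11 and 6.98 in wild-type livers. Again all 6 null arrays (7.74 to 8.67) lay above all 6 wild-type arrays (6.55 to 7.60), and wild-type ethanol replicate 1 was the lowest of the 12. Averaged over the diets, the difference was 0.94 ± 0.17 (SE; interval 0.57 to 1.30; limma adjusted p = 0.00541). On ethanol it was 1.04 ± 0.24 (2.06-fold, limma adjusted p = 0.0469) and on control diet 0.83 ± 0.24 (1.78-fold), where it missed the threshold with a limma adjusted p of 0.0627. The averaged call held in all 12 fits that left out 1 array (0.78 to 1.04). The ethanol-diet call held in 1 of 12, the fit without wild-type ethanol replicate 3, and its difference was lowest, at 0.72, without wild-type ethanol replicate 1. Without that array the control-diet difference passed (limma adjusted p = 0.0208). Asns differed between ethanol and control diet by 0.37 ± 0.24 in null livers and by 0.17 ± 0.24 in wild-type livers, and neither passed (limma adjusted p = 0.534 and 0.798).

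**Figure D1:**
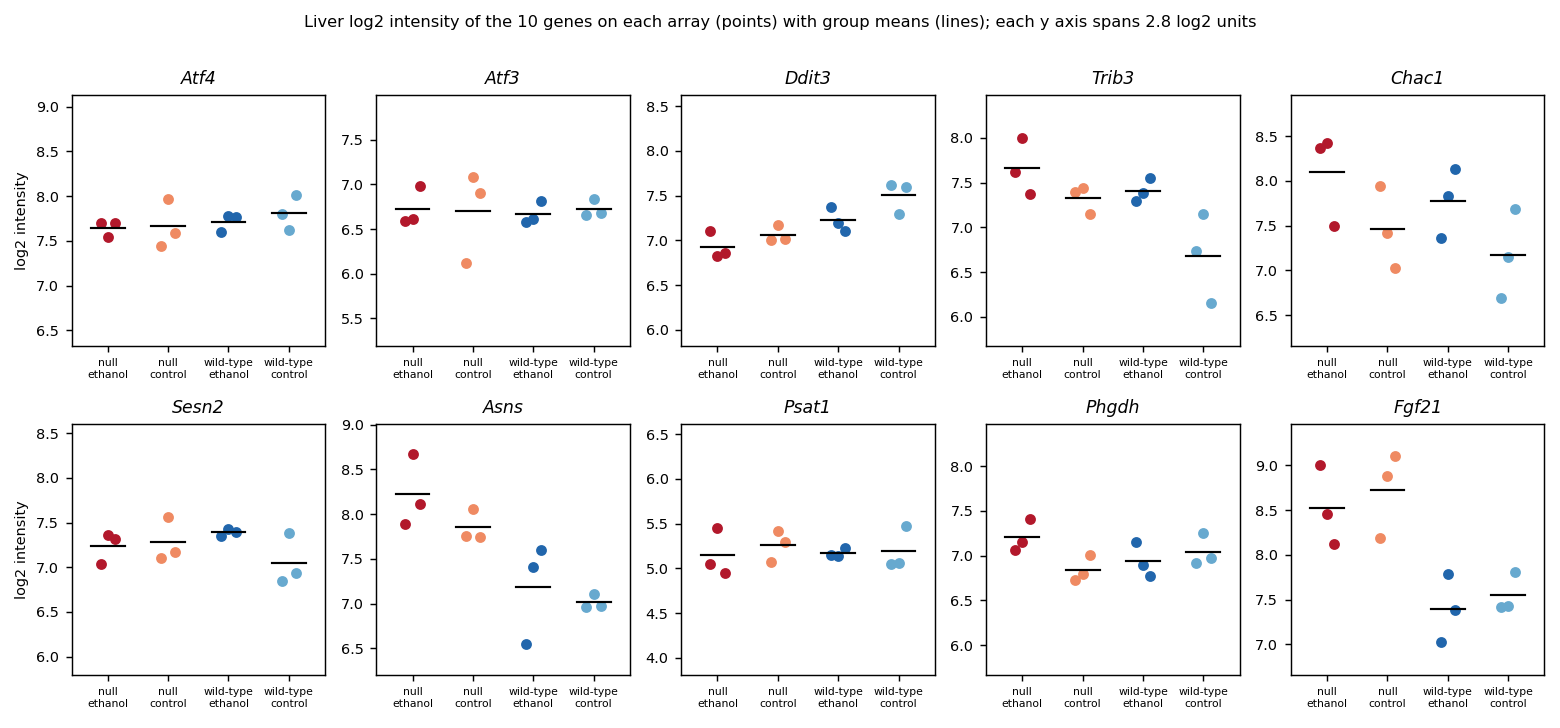
Log2 intensity (vertical axes) of the 10 genes on each of the 12 arrays, by group; points are arrays, lines are group means (n = 3), and every panel spans the same range of log2 units. Fgf21 and Asns sit higher on all 6 null arrays than on any wild-type array, while the groups of Atf4, Atf3 and Psat1 overlap.

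The promoters of the 3 genes called for genotype are shown. Each is the 250 bases before the start of transcription, 5′ to 3′ on the gene's strand, from RefSeq (GRCm38.p6). The core of a C/EBP-ATF response element, TGATGNAA or its reverse complement TTNCATCA, is in capitals. Within these 250 bases Fgf21 and Asns hold the core, and Ddit3 has no match. Bases further from the start were not searched. Fgf21 lies on the minus strand at chr7:45615491-45615740, Asns on the minus strand at chr6:7693210-7693459 and Ddit3 on the plus strand at chr10:127290543-127290792.
Fgf21: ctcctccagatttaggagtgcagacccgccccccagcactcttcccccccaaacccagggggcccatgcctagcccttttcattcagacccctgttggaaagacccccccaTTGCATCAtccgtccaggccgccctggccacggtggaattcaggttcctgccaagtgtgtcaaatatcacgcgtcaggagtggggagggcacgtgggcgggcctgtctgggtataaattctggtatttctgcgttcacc
Asns: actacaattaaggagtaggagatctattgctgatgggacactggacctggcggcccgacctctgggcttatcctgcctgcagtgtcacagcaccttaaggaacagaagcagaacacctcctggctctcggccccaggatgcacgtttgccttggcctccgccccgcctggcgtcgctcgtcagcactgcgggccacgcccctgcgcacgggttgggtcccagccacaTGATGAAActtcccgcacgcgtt
Ddit3: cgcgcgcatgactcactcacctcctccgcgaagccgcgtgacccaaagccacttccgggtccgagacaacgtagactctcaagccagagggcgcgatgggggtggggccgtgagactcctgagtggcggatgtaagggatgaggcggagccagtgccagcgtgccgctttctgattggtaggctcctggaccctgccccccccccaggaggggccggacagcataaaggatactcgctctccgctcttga

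The Fgf21 core covers bases 139 to 132 before the start and the Asns core bases 23 to 16. Searched on both strands, the core was in 4 of 10 members (Atf3, Chac1, Asns and Fgf21), against 3.45% of 32851 promoters and 3.91% of 27025 genes. The members are known ATF4 targets, so the count describes their choice. With base 3 of the core free (TGNTGNAA, which includes every match of the first form), 8 of 10 members had a match, against 12.8% of promoters, and Atf4 and Ddit3 had none. The matches of 4 members whose genotype difference was not called, or that were not tested, are shown for comparison with the pair above, each as 30 bases with the match in capitals. They lie at chr1:191183425-191183454 (Atf3, minus strand), chr2:119351038-119351067 (Chac1, plus strand), chr2:152344075-152344104 (Trib3, minus strand) and chr19:15925177-15925206 (Psat1, minus strand).
Atf3: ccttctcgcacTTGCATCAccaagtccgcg
Chac1: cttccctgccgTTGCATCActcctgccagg
Trib3: cgggtcacagaTGGTGCAAtcccgggccgc
Psat1: acgcgggtggcTGGTGCAAtcccctgctct

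Thus Atf3 and Chac1 hold the same 8 letters as Fgf21, TTGCATCA, and Trib3 and Psat1 share TGGTGCAA. Of the members with the core, Fgf21 and Asns rose in null livers, and Atf3 and Chac1 did not pass the test. A match is only a run of letters in this window, and binding was not measured.

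**Figure D2:**
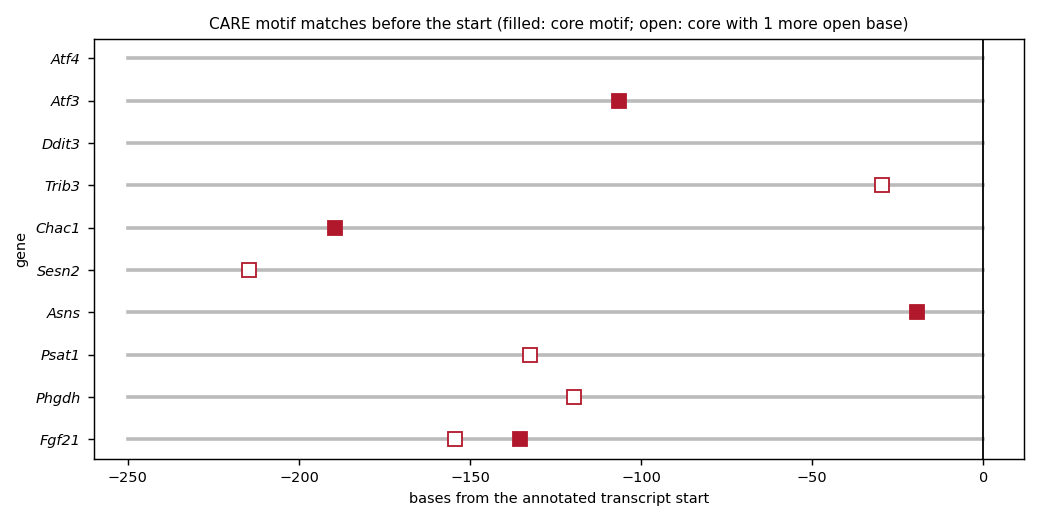
Position of motif matches (horizontal axis, bases from the start of transcription) in the promoters of the 10 genes (rows); filled squares are the centres of matches to the core and open squares those of matches found only with base 3 free. Matches lie at different distances from the start, and the rows of Atf4 and Ddit3 are empty.

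Atf4 encodes the transcription factor at the head of the response, whose protein is set largely by translation, so its transcript level is not its activity. Its log2 intensities were 7.70, 7.54 and 7.70 in null ethanol livers and 7.60, 7.78 and 7.77 in wild-type ethanol livers. On control diet they were 7.45, 7.97 and 7.59 in null livers and 7.80, 7.62 and 8.01 in wild-type livers. The groups overlapped throughout. The genotype difference was -0.10 ± 0.10 (SE; interval -0.31 to 0.10; limma adjusted p = 0.587), and that of ethanol averaged over the genotypes was -0.06 ± 0.10 (interval -0.27 to 0.15; limma adjusted p = 0.838). Both intervals lie below the averaged genotype differences of Fgf21 and Asns.

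Atf3, a stress-induced repressor of the same leucine zipper family, likewise overlapped between all groups. It read 6.59, 6.61 and 6.98 in null ethanol livers and 6.58, 6.61 and 6.81 in wild-type ethanol livers, and 6.12, 7.08 and 6.90 in null control livers and 6.65, 6.83 and 6.68 in wild-type control livers. Null control replicate 1 was the lowest of the 12 arrays. The genotype difference was 0.02 ± 0.14 (interval -0.29 to 0.32; limma adjusted p = 0.963) and that of ethanol -0.01 ± 0.14 (interval -0.32 to 0.29).

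Ddit3 encodes CHOP, the factor that ties prolonged stress of the endoplasmic reticulum to cell death. Its log2 intensities were 7.10, 6.83 and 6.86 in null ethanol livers, against 7.37, 7.19 and 7.11 in wild-type ethanol livers. On control diet they were 7.0, 7.17 and 7.01 in null livers, against 7.62, 7.29 and 7.59 in wild-type livers. Within each diet every null array lay below every wild-type array, which 14.4% of all genes showed on ethanol and 10% on control diet. Averaged over the diets, Ddit3 fell by 0.37 ± 0.08 on the log2 scale (SE; interval -0.54 to -0.19; limma adjusted p = 0.017). The difference was -0.30 ± 0.12 on ethanol (limma adjusted p = 0.228) and -0.44 ± 0.12 on control diet (1.36-fold lower, limma adjusted p = 0.0477). The control-diet call held in 4 of 12 fits that left out 1 array (without wild-type control replicate 2, wild-type ethanol replicate 1 or null ethanol replicate 1 or 3), with differences of -0.54 to -0.38. The averaged call held in all 12 fits (-0.42 to -0.33). With ethanol, Ddit3 differed by -0.13 ± 0.12 in null livers and by -0.28 ± 0.12 in wild-type livers, which was not called (limma adjusted p = 0.299 in wild-type livers).

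Within one diet, 2 of 9 members were called in null against wild-type livers on ethanol (Fgf21 and Asns, both higher), where 1.79% of all genes were called, 0.456% higher and 1.33% lower. On control diet 2 of 9 were called (Fgf21 higher and Ddit3 lower), where 5.1% of all genes were called, 3.21% higher and 1.89% lower. Every null array lay above every wild-type array for 2 members, Fgf21 and Asns, on each diet, as for 9.74% of all genes on ethanol and 14.6% on control diet. The median log2 difference of the 9 was 0.26 on ethanol, against -0.02 over all genes, and 0.23 on control diet, against 0.01 over all genes. Averaged over the diets it was 0.04, against 0.00 over all genes.

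**Figure D3:**
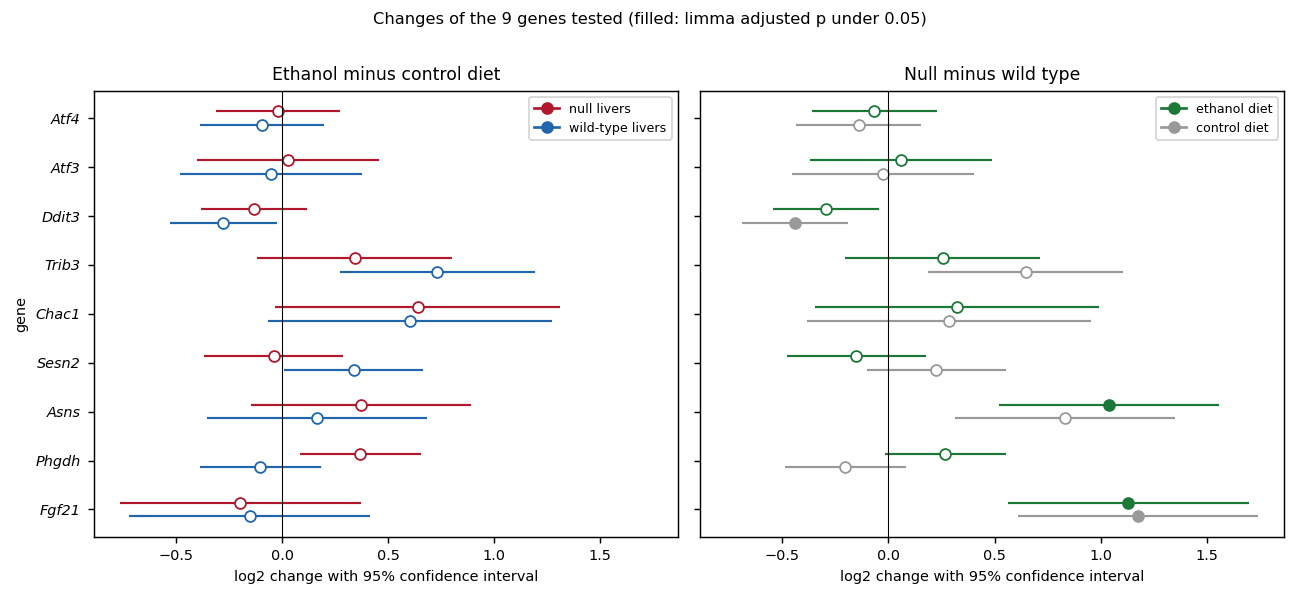
Log2 change with its 95% confidence interval (horizontal axes) of the 9 genes tested, for ethanol minus control diet in each genotype (left) and null minus wild type on each diet (right); filled points passed a limma adjusted p of 0.05. Filled points are only in the right panel, for Fgf21 on both diets, Asns on ethanol and Ddit3 on control diet.

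Trib3 encodes a pseudokinase that ATF4 and CHOP induce and that in turn restrains them. Its log2 intensities were 7.62, 8.00 and 7.38 in null ethanol livers, against 7.39, 7.44 and 7.15 in null control livers. They were 7.29, 7.38 and 7.55 in wild-type ethanol livers, against 6.73, 7.15 and 6.15 in wild-type control livers. In wild-type livers every ethanol array lay above every control array, as in 10.8% of all genes, and wild-type control replicate 3 was the lowest of the 12. The difference with ethanol was 0.34 ± 0.21 in null livers (limma adjusted p = 0.521) and 0.73 ± 0.21 in wild-type livers (1.66-fold, limma adjusted p = 0.166). Neither passed, and 0.0927% of all genes did in wild-type livers and 0.00713% in null livers. With wild-type control replicate 2 left out, Trib3 passed in wild-type livers with 0.97 (limma adjusted p = 0.0218), and averaged over the genotypes with 0.65 (limma adjusted p = 0.0364, against 0.237 with all arrays and 0.54 ± 0.15). Its genotype difference was 0.65 ± 0.21 on control diet and 0.45 ± 0.15 averaged over the diets with all arrays (limma adjusted p = 0.0938 and 0.0957). Without wild-type control replicate 2 these were 0.88 and 0.57, and both passed (limma adjusted p = 0.0207 and 0.0222). Without wild-type control replicate 3 the values moved the other way: the ethanol difference in wild-type livers was 0.47 (limma adjusted p = 0.451), and the genotype difference was 0.38 on control diet and 0.32 averaged over the diets, with no call.

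Chac1 encodes an enzyme that degrades glutathione. It read 8.37, 8.43 and 7.50 in null ethanol livers, against 7.94, 7.42 and 7.02 in null control livers, and 7.37, 7.83 and 8.13 in wild-type ethanol livers, against 6.69, 7.15 and 7.69 in wild-type control livers. The ethanol arrays were higher on average in both genotypes, but they overlapped the control arrays in each. Averaged over the genotypes the difference was 0.62 ± 0.22 (SE; 1.54-fold), which did not pass (limma adjusted p = 0.316).

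Sesn2 encodes a leucine sensor that restrains the growth kinase complex mTORC1. It read 7.03, 7.36 and 7.32 in null ethanol livers, against 7.10, 7.56 and 7.18 in null control livers, and 7.35, 7.42 and 7.39 in wild-type ethanol livers, against 6.84, 7.38 and 6.93 in wild-type control livers. The wild-type ethanol arrays lay close together and overlapped the wild-type control arrays through 1 of them, replicate 2 at 7.38. The difference with ethanol was -0.04 in null livers and 0.34 ± 0.15 in wild-type livers, where the limma adjusted p was 0.33. Leaving out wild-type control replicate 2 gave 0.50 in wild-type livers, still without a call (limma adjusted p = 0.0587).

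Phgdh catalyses the first step of serine synthesis from glycolysis. It read 7.07, 7.15 and 7.41 in null ethanol livers, against 6.73, 6.80 and 7.0 in null control livers, and 7.15, 6.90 and 6.78 in wild-type ethanol livers, against 6.92, 7.25 and 6.97 in wild-type control livers. In null livers every ethanol array lay above every control array, as in 5.59% of all genes, while the wild-type groups overlapped. The difference with ethanol was 0.37 ± 0.13 in null livers (1.29-fold, limma adjusted p = 0.34) and -0.10 ± 0.13 in wild-type livers, where leaving out wild-type control replicate 2 gave -0.0015. The test of the difference between them gave 0.47 ± 0.19 (interval 0.07 to 0.88), which did not pass over all genes (limma adjusted p = 0.273). For this interaction 0 of 9 members passed, and 0.0143% of all genes did.

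Psat1, the aminotransferase of the next step of serine synthesis, was above the filter on 0 of 12 arrays, and its mean ranked at the 28.8th percentile of all genes. It read 5.05, 5.45 and 4.95 in null ethanol livers and 5.15, 5.14 and 5.23 in wild-type ethanol livers, and 5.07, 5.42 and 5.30 in null control livers and 5.05, 5.06 and 5.47 in wild-type control livers. The groups overlapped. In the fit without a filter its genotype difference was 0.02 ± 0.11 (interval -0.21 to 0.25; limma adjusted p = 0.953).

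Ethanol thus called 0 of 9 members in every comparison, where 3 had an unadjusted p under 0.05 in wild-type livers (Ddit3, Trib3 and Sesn2), 1 in null livers (Phgdh) and 3 averaged over the genotypes. Over all genes, limma called 13 in wild-type livers, 1 in null livers and 2 averaged over the genotypes (0.0143%), with 2035, 1709 and 1702 at an unadjusted p under 0.05.

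Around the 10 genes, several chaperone genes of the endoplasmic reticulum stress response fell in null livers. Of 14 genes tested of the ATF6 and XBP1 arms, which build chaperone capacity in the endoplasmic reticulum, 6 fell and 0 rose, where 3.98% of all genes fell, and 13 of 14 had a negative difference; the median was -0.30, against 0.00 over all genes. Sdf2l1, a chaperone cofactor, was 2.06-fold lower (-1.04 ± 0.17, limma adjusted p = 0.00236), and Dnajb9, another cofactor, fell by 0.61 ± 0.09 (limma adjusted p = 0.00157). Hspa5, the gene of the chaperone BiP, fell by 0.48 ± 0.08 (limma adjusted p = 0.00292), and Hsp90b1, the gene of the chaperone GRP94, fell by 0.32 ± 0.07 (limma adjusted p = 0.0138). The count was 4 to 8 over the fits that left out 1 array, and it was 4 in 8 of the 12. The endoplasmic reticulum stress element (CCAAT, 9 free bases and CCACG, on either strand) was in 6 of 11 of these genes with a promoter at hand (Hspa5, Hsp90b1, Dnajc3, Calr, Creld2 and Syvn1), in 0 of the 10 members and in 0.13% of all genes. These are known targets of the ATF6 and XBP1 arms, so the count describes their choice.

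Some genes of amino acid handling were called in null livers, where 3.98% of all genes were called lower and 3.01% higher. Of 10 genes tested of amino acid synthesis, 2 fell and 0 rose: Got1, the cytosolic aspartate aminotransferase, was 1.97-fold lower (-0.98 ± 0.11, limma adjusted p = 0.000119), and Cth, which makes cysteine from cystathionine, 1.64-fold lower (-0.71 ± 0.10, limma adjusted p = 0.0009). Their median was 0.01. Of 12 tRNA synthetases and related genes, 1 fell, Wars, by 0.26 ± 0.07 (limma adjusted p = 0.0344). Of 8 amino acid transporters, Slc7a5, the large neutral amino acid carrier, was 1.41-fold lower (limma adjusted p = 0.0252) and Slc38a2, a glutamine carrier, 1.24-fold higher (limma adjusted p = 0.0487).

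Other targets of ATF4 and CHOP gave 0 calls among 18 tested averaged over the diets, although 13 had a positive difference. The median was 0.09. It was 0.23 on control diet and 0.07 on ethanol, against 0.01 and -0.02 over all genes. On each diet 13 of 18 were positive and 0 were called. Averaged over the diets, the closest to the threshold were Vldlr, a lipoprotein receptor (0.32 ± 0.11, limma adjusted p = 0.103), and Ddit4, an inhibitor of mTORC1 (0.75 ± 0.30, limma adjusted p = 0.16). Vldlr also had the smallest p of its list with ethanol, averaged over the genotypes (1.56-fold, limma adjusted p = 0.0674). The eIF2α kinases and regulators gave 0 calls among 17 averaged over the diets, with a median of -0.01. On control diet 1 of them rose, Ppp1r15a, which returns eIF2α to its unphosphorylated state (0.55 ± 0.14, limma adjusted p = 0.0393). Over all genes 3.21% were called higher on that diet. Averaged over the diets Ppp1r15a differed by 0.32 ± 0.10, which was not called (limma adjusted p = 0.0721). On ethanol 0 of the 17 were called.

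Of 12 genes tested of FGF receptors, their co-receptor and regulators of Fgf21, 1 rose. It was Fgfr4, the main FGF receptor of hepatocytes, by 0.21 ± 0.06 (limma adjusted p = 0.0376). Klb, the gene of β-klotho, differed by 0.07 ± 0.07 (limma adjusted p = 0.629). On control diet Creb3l3, a liver transcription factor that induces Fgf21 in fasting, also rose (0.33 ± 0.09, limma adjusted p = 0.0439). On ethanol 0 of the 12 were called. The Creb3l3 genotype difference on ethanol less that on control diet was -0.31 ± 0.12, which was not called (limma adjusted p = 0.269). The median of the 12 was 0.28 on control diet, with 10 of 12 positive, and -0.06 on ethanol, with 5 of 12 positive. Targets of PPARα, the receptor that induces Fgf21 in fasting, gave 0 calls among 11 averaged over the diets, with a median of 0.02. Their median was 0.06 on control diet, with 7 of 11 positive, and -0.16 on ethanol, with 2 of 11 positive. The medians over all genes were 0.01 and -0.02. On control diet 1 of these targets, the acyl-CoA thioesterase gene Acot2, was 2.06-fold higher (limma adjusted p = 0.0184), and on ethanol 0 were called. Over all genes, 3.01% were called higher averaged over the diets and 3.21% on control diet.

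Immediate early genes, which respond within minutes to hormones and handling, gave 2 calls among 12, both higher, where 3.01% of all genes rose. They were Dusp1, a phosphatase of MAP kinases (2.32-fold, limma adjusted p = 0.000681), and Egr1 (0.95 ± 0.23, limma adjusted p = 0.0269). Dusp1 differed by 1.89 ± 0.23 on control diet (limma adjusted p = 0.000541). On ethanol it differed by 0.53 ± 0.23, which was not called (limma adjusted p = 0.275). The list median was 0.46 on control diet and -0.02 on ethanol. Of the fasting and glucocorticoid genes 0 of 8 were called averaged over the diets, and Per1 was nearest (0.81 ± 0.25, limma adjusted p = 0.0719). On control diet 1 of the 8 rose, Sgk1 (0.64 ± 0.17, limma adjusted p = 0.0477), where 3.21% of all genes were called higher. On ethanol 0 of the 8 were called. The median of the 8 was 0.46 on control diet and 0.02 on ethanol, with 5 of 8 positive on each diet. The part of these genes in the Fgf21 difference was not tested.

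Markers of macrophages and Kupffer cells moved with genotype: averaged over the diets, 9 of 10 fell and 0 rose, where 3.98% of all genes fell. The median was -0.54, against 0.00 over all genes. On control diet 6 of 10 were called lower (1.89% of all genes), and on ethanol 1 of 10, Cd5l (1.33% of all genes). All 10 markers had a negative difference on each diet, with medians of -0.67 on control diet and -0.56 on ethanol. Their summed intensity was 3683 to 5218 in null ethanol livers, against 5873 to 7363 in wild-type ethanol livers, and 2900 to 3893 in null control livers, against 4698 to 6858 in wild-type control livers. In whole liver, fewer cells of a type and less RNA per cell cannot be told apart. Of the endothelial markers 2 of 6 fell (Pecam1 and Tek), and 0 were called among the markers of hepatocytes (8), stellate cells (7), cholangiocytes (3), lymphocytes (4), pancreatic acinar cells (3) and adipocytes (1), while 0 of 3 neutrophil markers were above the filter. The part of these cell markers in the differences of Fgf21, Asns and Ddit3 was not tested.

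**Figure D4:**
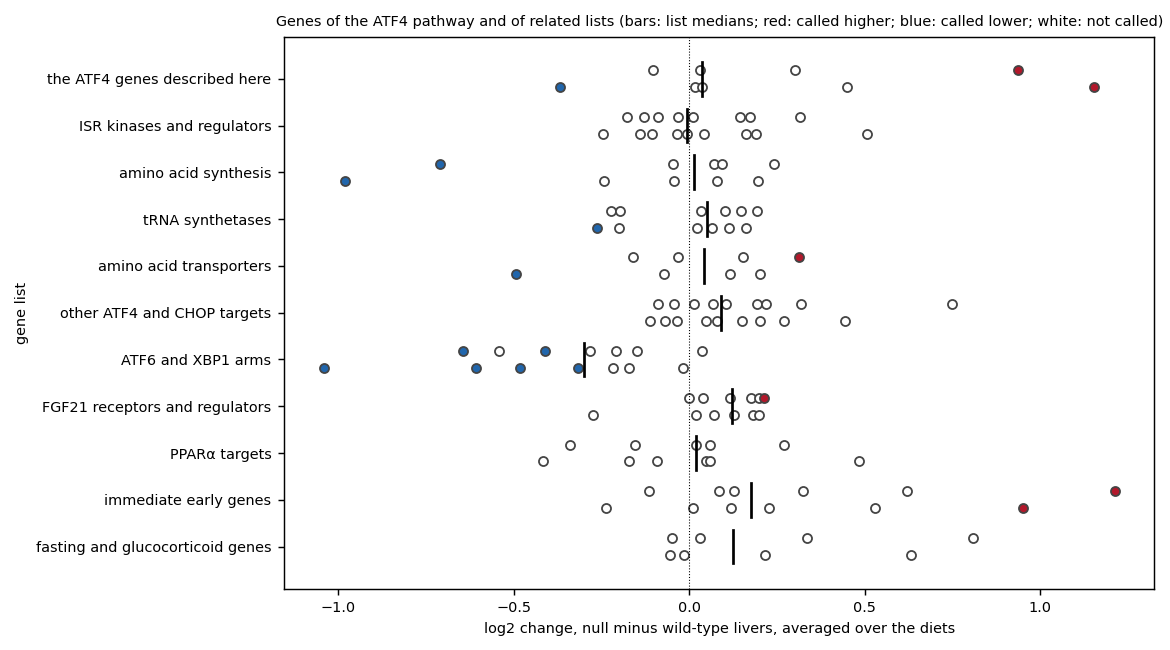
Log2 change in null minus wild-type livers averaged over the diets (horizontal axis) for each tested gene of each list (rows); red points were called higher and blue points called lower at a limma adjusted p under 0.05, white points were not called, and bars are list medians. In the ATF6 and XBP1 arms 13 of 14 points lie left of 0, and each other list drawn here has points on both sides of 0.

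Correlations within groups between members were taken over the 9 tested members. After each group's mean was subtracted, the 36 pairs of tested members had a median Pearson r of 0.10 over 12 arrays (-0.67 to 0.58), with 19 pairs above 0. These values describe these arrays only. Fgf21 was closest among members to Atf4 (0.51) and Asns to Trib3 (0.47), while Asns and Ddit3 ran opposite (-0.59). Over 12818 genes, those most like Fgf21 were Mri1 (0.93), Mrm3 (0.92), Aars2 (0.91), Irgq (0.91) and Lsr (0.90). Those most like Asns were Cpn1 (0.91), Ccno (0.90), Gpsm1 (0.89), Tor2a (0.89) and Rpusd4 (0.89). For Atf4 they were Rbp4 (0.95), Hmces (0.93), Cebpg (0.92), Pdp1 (0.91) and Nuak1 (0.91). For Psat1 they were Nyx (0.93), Insig2 (0.90), Arnt2 (0.90), Stx1a (0.89) and Trim2 (0.89), although Psat1 was above the filter on 0 of 12 arrays. With so many genes screened over 12 arrays, values of this size describe these arrays only.

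The members lie on 9 chromosomes, with Trib3 and Chac1 both on chromosome 2. Of the 20 tested genes nearest to each, 10 on each side, 3 were called for genotype around Fgf21, 2 around Asns and 2 around Ddit3. Over the members these counts ran between 0 and 4, where 7% of all genes tested were called.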

How the data were processed

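Liver RNA of 12 samples was labelled with biotin and hybridised to the arrays, per the labels' protocols. The deposited values are 1 intensity per probe set and array, which the authors made with RMA, per the submitters' processing notes; version, settings and genome build: not given in the sources used here. These deposited intensities spanned 1.816 to 20156, a linear scale, and log2 of the deposited values was taken here. Of 41345 probe sets, 23521 named exactly 1 gene, which gave 22180 genes.

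A gene was tested if it lay above the 40th percentile of its array on at least 3 arrays; 14031 genes passed, 9 of the 10 members among them. All 12 arrays entered a single linear model of the 4 group means in limma 3.58.1 in R 4.3.3 (lmFit, contrasts.fit and eBayes, with 8 residual and 4.95 prior degrees of freedom), with 7 contrasts and Benjamini-Hochberg adjustment over all tested genes, called at an adjusted p under 0.05. Errors are SEs from this fit or SDs over 3 arrays, and the number of arrays limits precision. The fit was tested on simulated data.

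All members were named. Of each gene list, up to 4 called genes with the smallest p were named in a comparison, or up to 2 where none was called, and for likeness 5 genes per member; genes holding a promoter motif were named from the sequence search. Members and lists were chosen with earlier results of these data known. Promoters and names came from RefSeq (GRCm38.p6), with 23328 probe sets matched by Entrez ID. Alternatives covered the log offset, between-array scaling, the filter, the probe set rule, the variance model, array weights, the arrays fitted, a replicate block and leaving out each array.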

Additional observations from a re-analysis of the deposited data

How the results depend on the processing

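The averaged genotype calls of Fgf21, Asns and Ddit3 held in all 12 fits that left out 1 array and under the 9 other alternatives run for that comparison, with 3 to 4 members called; the 4th was Trib3, under array weights and without wild-type control replicate 2. Within one diet calls were less stable. On ethanol, 2 members were called in null against wild-type livers, but 1 under median centring, 0 without a filter, 0 with trend and robust moderation, 0 with the compared groups alone, and 0 to 1 with 1 array left out. On control diet 2 were called, but 1 under median centring, 1 without a filter, 3 under array weights, and 0 to 3 with 1 array left out. The members called also changed: over the 10 other alternatives Fgf21 passed in 10, Ddit3 in 6, Asns in 2 and Trib3 in 1. For ethanol 0 members were called in wild-type livers and averaged over the genotypes, but 1 (Trib3) in each under array weights and 0 to 1 with 1 array left out. Where a call was lost, the cause was not tested. Ethanol in null livers and the interaction called 0 members under every alternative run.

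Over all genes, leaving out 1 array gave 0 to 810 calls for ethanol in wild-type livers (13 with all arrays), 0 to 3 in null livers (1), 192 to 1304 for genotype on control diet (715), 108 to 319 on ethanol (251), 621 to 1314 averaged over the diets (982), 0 to 293 for ethanol averaged (2) and 0 to 84 for the interaction (2); the highest counts, other than in null livers and for genotype on ethanol, were without wild-type control replicate 2. Array weights gave 832, 9, 1631, 829, 1863, 133 and 38 in the same order. With no filter the counts were 7, 0, 393, 169, 664, 2 and 1, and with the compared groups alone genotype on control diet gave 226. The list of the ATF6 and XBP1 arms, counted under the same alternatives after its count was seen, gave 4 to 8 genes lower.

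Labels give replicate numbers but no meaning for them. Same-numbered arrays of different groups had correlations of deviations of -0.15 to 0.19 (median -0.02, 18 pairs), and 2 pairs were above 0.1. Of the 12 arrays, 2 were closest to their own number. No pairing by number was seen over all genes, and pairing in part of the genes was not tested. With a replicate block 1 member was called for genotype on ethanol, against 2 without it.

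Of 1359 member values under alternatives, 43 lost a call, 11 gained one and 0 called values turned sign. Values called in neither fit changed sign 60 times; 3 of these, all of Atf3 without null control replicate 1, moved by more than 1 SD (-0.26 for ethanol in null livers, 0.27 for genotype on control diet and -0.21 for the interaction). Signal over background limits Psat1, and 3 arrays per group limit every difference.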
